A study of Mus musculus with 5 samples.

Results

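The transcripts described are those of the Hox genes, which encode homeodomain transcription factors that give cells along the body axis and in the limbs their position. They were taken as every non-control probe of the array whose gene name is Hox, a cluster letter and a number: 39 genes by 44 probe designs, of 36409 genes and unnamed features on the array. The genes lie in 4 clusters, 11 in Hoxa, 10 in Hoxb, 9 in Hoxc and 9 in Hoxd, and carry paralogue numbers from 1 to 13, so that genes of the same number in different clusters are the closest relatives. In the embryo, low numbers are transcribed early and towards the head, and high numbers late and towards the tail and the tips of the limbs. Connective tissue and muscle cells of the adult keep much of the Hox pattern of the place they come from. Pbx, Meis and Pknox proteins bind DNA together with Hox proteins, and proteins of the Polycomb and Trithorax groups hold the clusters silent or active through marks on histones.

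Cells came from the muscle of C57BL/6 mice with the DMD/MDX genotype, a mutation of dystrophin that models Duchenne muscular dystrophy and that all groups carried. For 45 days the mice had been given vehicle, or 0.6 mg per kg of trichostatin A (TSA), which blocks histone deacetylases, by intraperitoneal injection. Sca1+ interstitial cells were sorted as CD34+, a7-integrin+ and Sca1+ and measured on 2 arrays for vehicle and 2 for TSA. Satellite cells, the muscle stem cells (MuSC), were sorted as CD34+, a7-integrin+ and Sca1- and measured on 1 array, for vehicle. The age of the mice, the muscle taken and whether the replicates came from separate or pooled animals are not given in the sources used here, and a p-value here weighs a difference against the spread of these arrays alone, which may be technical. A level is log2 of the processed spot intensity minus the 75th percentile of its array, and levels are compared between arrays for 1 probe, never between probes.

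Of the genes of the sort, Ly6a followed the gate, while Itga7 and Cd34 differed between cell types sorted as positive for both. Ly6a, which encodes Sca1, stood at 6.46 and 6.59 with vehicle and 5.89 and 5.71 with TSA in Sca1+ cells and at 1.46 in MuSC, while Pax7, the satellite cell factor, stood at -3.77 and -4.51, at -0.99 and -1.16, and at 3.48. Itga7, which encodes a7-integrin, stood at 1.35 and 1.09 with vehicle, at 4.53 and 4.59 with TSA and at 7.02 in MuSC, and Cd34 at 7.67 and 7.65, at 6.85 and 7.05, and at 4.47. All 10 fibroadipogenic progenitor markers were called lower in MuSC (limma, adjusted p under 0.05), as were 11.7% of all genes. With TSA 1 of them was called lower (0.268% of all genes) and 8 were lower at an unadjusted p under 0.05 (12.7% of all genes). All 10 had both TSA arrays below both vehicle arrays (36.4% of all genes), with a median of -0.87. With TSA, markers of cell types other than the sorted one were higher in Sca1+ cells (limma, adjusted p under 0.05): 5 of 10 satellite cell, 6 of 8 myogenic differentiation, 7 of 8 smooth muscle and pericyte, 5 of 6 mast cell, 5 of 6 Schwann cell, 3 of 4 red cell, 1 of 6 endothelial and 0 of 6 macrophage markers, and 2 of 4 keratinocyte markers were lower. Of all genes 2.71% were called higher and 0.268% lower. Of the 6 macrophage markers 4 were higher at an unadjusted p under 0.05, as were 10.5% of all genes. The part of these markers in the Hox values that follow was not tested. The 75th percentile of the processed signal lay between 165 and 452 over the 5 arrays, and 58.5% to 66.9% of spots were well above background. A gene at background therefore sits lower where the percentile is higher: the undetected Hoxb1, Hoxb13, Hoxd1 and Hoxd12 had TSA minus vehicle values of -0.20 to -0.29 on slide 1 and -1.14 to -1.88 on slide 2.

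Most Hox genes were detected in both cell types, with gaps both at the ends of the clusters and inside them. Well above background on every array of the group were 30 of 39 genes in Sca1+ cells with vehicle, 31 with TSA and 28 in MuSC, and 27 genes passed on all 5 arrays. Hoxa held 10 of its 11 genes on all 5 arrays, Hoxb 7 of 10, Hoxc 7 of 9 and Hoxd 3 of 9. Hoxb1, Hoxb13, Hoxd1 and Hoxd12 were well above background on no array. The probes that stand for Hoxa13, Hoxd3 and Hoxd10 reached that level on some arrays but not on all of any group, so 32 genes could be tested. A second, dimmer Hoxa13 probe was well above background on the MuSC array alone, with a MuSC value of 1.49 that did not pass (limma over all probes, adjusted p = 0.235), where the first had -1.14. Hoxb1 acts in the hindbrain and Hoxb13, Hoxd12 and Hoxa13 at the caudal and distal end of the body plan.

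With TSA, 2 of 8 tested genes of the Hoxb cluster were higher in Sca1+ cells than with vehicle, and no other cluster had a called gene. Hoxb9 was 3.80-fold and Hoxb8 2.41-fold higher, and both act in the trunk. Of 32 Hox genes tested 2 were called higher and 0 lower (limma, adjusted p under 0.05), against 2.71% of all genes called higher and 0.268% called lower. At an unadjusted p under 0.05, 7 Hox genes were higher, 6 of them in Hoxb, and 0 lower, against 10.5% and 12.7% of all genes. Over the whole array 708 of 26090 genes were called higher and 70 lower, a split that turned to 1252 and 5868 with normexp background correction.

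Hoxb9, whose 60-base probe lies at chr11:96137748-96137807 (mm9, plus strand), stood at -4.24 and -3.84 with vehicle, at -2.07 and -2.17 with TSA and at -4.11 in MuSC. Both TSA arrays were above both vehicle arrays, and MuSC lay between the vehicle arrays. The means were -4.04 ± 0.28 (SD, n = 2) with vehicle and -2.12 ± 0.07 (SD, n = 2) with TSA, a log2 difference of 1.93 with a standard error of 0.20 (limma, adjusted p = 0.0261). Hoxb8, at chr11:96146576-96146635 (mm9, plus strand), stood at -3.93 and -4.00 with vehicle, at -2.64 and -2.76 with TSA and at -5.73 in MuSC, where it was not well above background. The TSA and vehicle arrays did not overlap, and the difference was 1.27 with a standard error of 0.15 (limma, adjusted p = 0.0354). Both are dim probes, and both calls were lost when any 1 of the 4 Sca1+ arrays was left out (limma adjusted p of 0.0694 to 0.180 for Hoxb9 and 0.115 to 0.217 for Hoxb8). Without either TSA array 0 genes of the whole array were called, and 8 and 5 Hox genes had an unadjusted p under 0.05. With normexp background correction the difference was 0.32 for Hoxb9 (limma, adjusted p = 0.262) and -0.05 for Hoxb8 (adjusted p = 0.885), and with no filter on dim probes neither passed (adjusted p = 0.0793 and 0.113).

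The neighbours of Hoxb8 and Hoxb9 had values of the same sign below the threshold. Hoxb7 stood at -0.91 and -0.76 with vehicle, at 0.14 and 0.26 with TSA and at -1.64 in MuSC, a TSA minus vehicle difference of 1.03 ± 0.16 (SE; limma, adjusted p = 0.0622). Hoxb6 stood at -1.47 and -1.82, at -0.47 and -0.75, and at -2.15 (1.03 ± 0.21, SE; limma, adjusted p = 0.0983). Hoxb4, which is known for its part in blood stem cell growth, stood at -1.97 and -1.67, at -0.91 and -0.71, and at -1.89 (1.01 ± 0.19, SE; limma, adjusted p = 0.0863). For each of these genes the TSA arrays lay above the vehicle arrays. With centring on the median Hoxb6 and Hoxb7 also passed (limma, adjusted p = 0.0336 and 0.0422), which made 4 genes. That setting called 1297 of 26090 genes higher. Hoxb7 also passed with the deposited values and with only genes well above background on all 5 arrays (limma, adjusted p = 0.0490 and 0.0474). With normexp Hoxb7 alone passed, at 0.71 (limma, adjusted p = 0.0257), where 4.80% of all genes were called higher. Hoxb5 and Hoxb2 had differences of 0.78 and 0.79 (limma, adjusted p = 0.138 and 0.247).

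**Figure D1:**
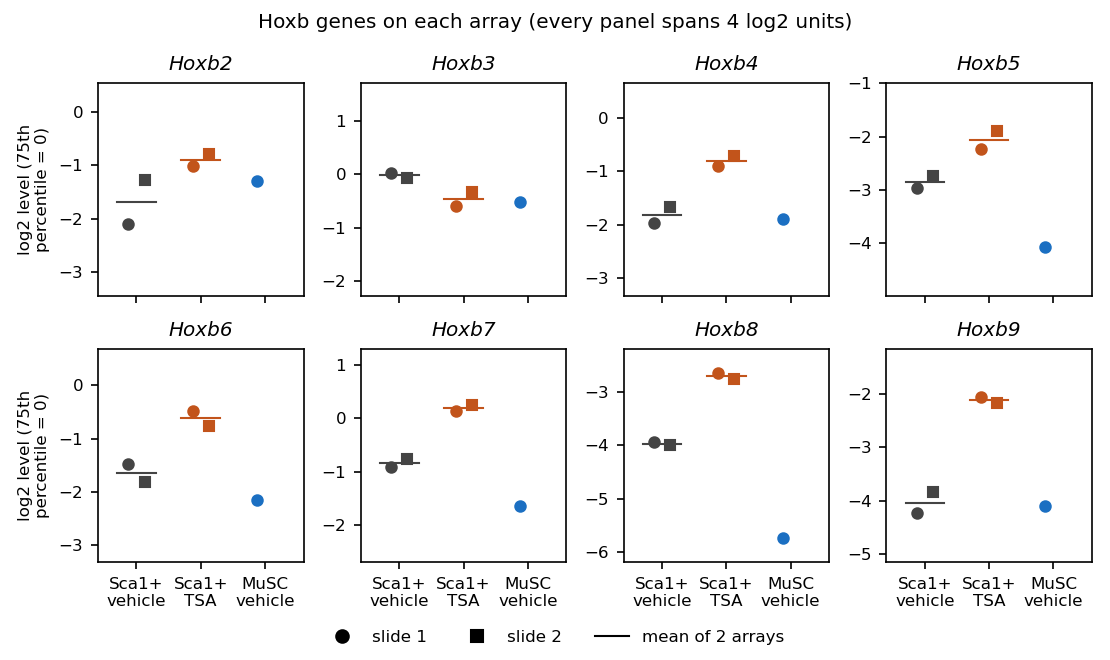
Levels of the 8 tested Hoxb genes on each array (log2, 75th percentile of the array at 0), with circles for slide 1, squares for slide 2 and lines for the mean of 2 arrays. In all panels except that of Hoxb3 both Sca1+ TSA arrays lie above both Sca1+ vehicle arrays.

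Over the 8 tested Hoxb genes the median difference was 1.02, with 1.05 on slide 1 and 0.99 on slide 2, against -0.13 over all genes. In 7 of the 8, both TSA arrays were above both vehicle arrays, which held for 22.9% of all genes. The 8 genes share arrays, scaling and neighbourhood, so their agreement is a description. The difference was larger at higher paralogue numbers, with a Spearman correlation of 0.857 over 8 genes, and of 0.50 on slide 1 and 0.929 on slide 2, but of 0.0952 with normexp. In Hoxa, Hoxc and Hoxd the same correlation was -0.685 over 10 genes, -0.533 over 9 and -0.60 over 5, and with normexp -0.139, -0.50 and -0.90. Hoxb2 lies 77.4 kb from Hoxb9, by probe position, and Hoxb8 8.83 kb. With normexp the median of the 8 was 0.33. On the same TSA arrays the summed level of the 10 satellite cell markers was 41.9 and 43.4 times the 75th percentile, against 13.7 and 13.1 with vehicle and 268 in MuSC. For the 8 smooth muscle and pericyte markers it was 615 and 567 against 60.2 and 66.0, with 1618 in MuSC, and for the 6 mast cell markers 32.4 and 29.8 against 1.83 and 2.17, with 1.27 in MuSC. In such a sum the brightest probes weigh most. The median log2 differences of these lists with TSA were 2.56, 3.54 and 5.83. In MuSC, where the satellite cell, myogenic, smooth muscle and Schwann cell markers were higher still, Hoxb5 and Hoxb8 were lower than in Sca1+ cells with vehicle and Hoxb9 stood between the vehicle arrays. The part of any of these cell types in the Hoxb values was not tested.

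Hoxb3 was the exception, and its probes disagreed. The brighter probe, which stands for the gene, stood at 0.03 and -0.06 with vehicle, at -0.59 and -0.33 with TSA and at -0.51 in MuSC. Both TSA arrays were below both vehicle arrays, but the difference of -0.45 did not pass (limma, adjusted p = 0.227). The dimmer probe stood at -4.07 and -4.19 with vehicle and at -3.36 and -3.21 with TSA, a difference of 0.84 with the sign of the other Hoxb genes (limma over all probes, adjusted p = 0.105).

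Outside Hoxb no gene was called with TSA, and the sign went with the paralogue number. Over all 26090 genes tested, 10064 had a value above 0 and 16026 a value below 0. Among the 13 tested genes of numbers 1 to 8 outside Hoxb, 11 had a value above 0, with a median of 0.27. The count was 7 with normexp and 12 with quantile or median scaling. In 7 of the 13 both TSA arrays were above both vehicle arrays, which held for 22.9% of all genes. Among the 11 of numbers 9 to 13 outside Hoxb, all had a value below 0 in every scaling and background correction run, with a median of -0.37, and in 8 both TSA arrays were below both vehicle arrays, which held for 36.4% of all genes. This division was chosen after the values were seen and has no test, and 0 of these 24 genes passed the threshold. With normexp Hoxc8, Hoxc12 and Hoxd11 were called lower, at -0.79, -0.82 and -0.66 (limma, adjusted p = 0.0228, 0.0225 and 0.0380), where 22.5% of all genes were called lower. At an unadjusted p under 0.05, 1 gene of the first group was higher (Hoxa5) and 0 of the second were lower.

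In Hoxa, Hoxa5, a regulator of the neck, shoulder and lung, stood at -3.13 and -3.63 with vehicle, at -2.76 and -2.42 with TSA and at -2.39 in MuSC. Its arrays did not overlap, and its difference of 0.80 ± 0.25 did not pass (SE; limma, adjusted p = 0.181); with normexp it was -0.06. Hoxa10, a gene of the lumbar spine and the thigh, stood at 0.74 and 0.47, at 0.05 and 0.33, and at 0.21, lower on both TSA arrays by a difference of -0.42 (limma, adjusted p = 0.280). Hoxa4 and Hoxa6 lay near 0, at 0.03 and -0.06, and the sign of Hoxa2, Hoxa4, Hoxa5 and Hoxa6 flipped in at least 1 other scaling or background correction. The Hoxa median was 0.15.

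In Hoxc the largest value belonged to Hoxc12, which stood at -2.69 and -2.95 with vehicle, at -3.23 and -4.99 with TSA and at -3.76 in MuSC. The 2 TSA arrays were far apart, and the difference of -1.29 ± 0.62 did not pass (SE; limma, adjusted p = 0.293). Hoxc8, a trunk gene, stood at -4.69 and -3.48 with vehicle and at -4.81 and -4.99 with TSA and was well above background on 1 array of each (-0.81; limma, adjusted p = 0.330). Hoxc9, also a trunk gene, stood at 1.84 and 1.92 with vehicle, at 1.36 and 1.54 with TSA and at 2.32 in MuSC, which put the 3 groups apart (-0.43 ± 0.16 for TSA, SE; limma, adjusted p = 0.216). The Hoxc median was -0.31.

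In Hoxd, Hoxd4, a gene of the upper cervical spine, stood at -2.01 and -1.46 with vehicle and at -1.46 and -0.75 with TSA (0.63; limma, adjusted p = 0.325). Hoxd9 stood at -0.56 and -0.96 with vehicle and at -0.87 and -1.41 with TSA (-0.38; limma, adjusted p = 0.429), and Hoxd11, a gene of the forearm, at -4.46 and -4.19 and at -4.43 and -4.95 (-0.37; limma, adjusted p = 0.406). The arrays of Hoxd9 and Hoxd11 overlapped between the groups. A second, dimmer Hoxd11 probe, well above background on 1 vehicle and 1 TSA array, had the other sign, at 0.23. With the mean of both probes Hoxd11 was at -0.07. The Hoxd median was -0.29.

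**Figure D2:**
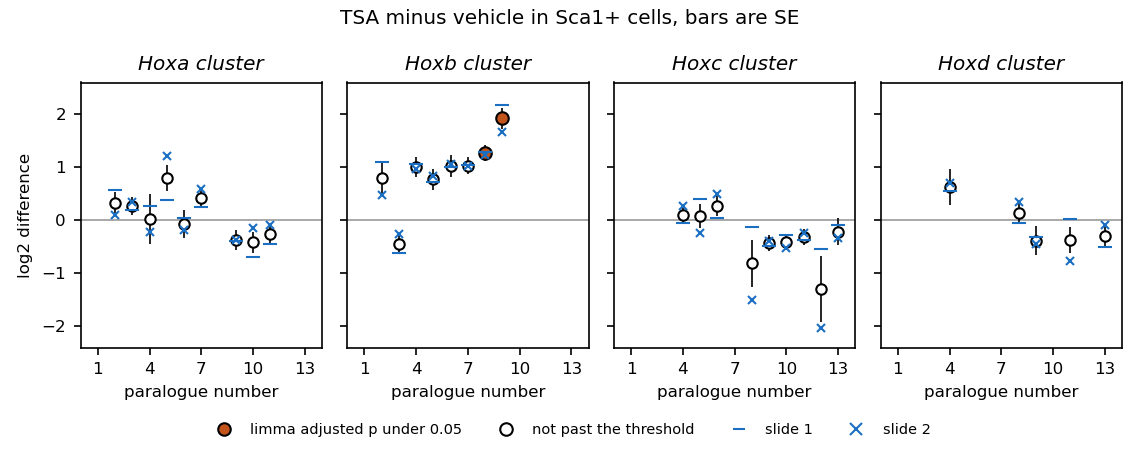
Difference between Sca1+ cells with TSA and with vehicle (log2) against paralogue number, in 1 panel per cluster; circles are the limma estimate with its standard error, filled at an adjusted p under 0.05, and blue marks are each slide by itself. Hoxb8 and Hoxb9 are the filled circles, and outside Hoxb all limma estimates at numbers 9 to 13 lie below 0. By itself, slide 1 puts Hoxd11 at 0.02.

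MuSC and Sca1+ cells of vehicle-treated mice differed in 7 of 32 Hox genes, 2 higher and 5 lower in MuSC. Hoxa7 and Hoxc4 were higher, and Hoxa11, Hoxb5, Hoxb8, Hoxc13 and Hoxd13 were lower (limma, adjusted p under 0.05), where 10.5% of all genes were called higher and 11.7% lower. MuSC lay above both vehicle arrays in 12 Hox genes and below both in 15, against 39.3% and 44.0% of all genes. The MuSC group is 1 array, so its spread is assumed to equal that of the Sca1+ arrays. In bulk samples, fewer cells of a type that transcribe a gene and less RNA per cell cannot be told apart.

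The 5 genes called lower came from all 4 clusters. Hoxd13, which patterns the digits, stood at -4.15 and -4.09 in Sca1+ cells with vehicle and at -6.96 in MuSC, where it was not well above background, so that it was at least 1.50-fold lower (-2.84 ± 0.26, SE; limma, adjusted p = 0.00539). Hoxc13, a gene of hair, nails and the tail, stood at -3.57 and -3.85 and at -6.68 and was likewise not well above background in MuSC, at least 1.99-fold lower (-2.97 ± 0.31, SE; limma, adjusted p = 0.00707). Such a bound compares the brighter group's mean with the lowest level of any probe well above background on the dim array. It applies to the processed signal used here and not to the normexp values, which were smaller. Hoxa11, which with Hoxd11 shapes the forearm and lower leg, stood at 0.19 and 0.15 and at -1.46, and was well above background on all arrays (-1.63 ± 0.22, SE; limma, adjusted p = 0.0127). The probe lies at chr6:52192107-52192166 (mm9, minus strand). Without vehicle replicate 2 Hoxa11 missed the threshold (limma, adjusted p = 0.0512).

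In Hoxb, Hoxb8 at -5.73 in MuSC was at least 1.66-fold lower than at -3.93 and -4.00 (-1.76 ± 0.18, SE; limma, adjusted p = 0.00716). Hoxb5, a gene of the lower neck and shoulder, stood at -2.96 and -2.73 and at -4.06 in MuSC, 2.33-fold lower (-1.22 ± 0.24, SE; limma, adjusted p = 0.0333). Its call was lost with quantile scaling, the deposited values and no filter on dim probes (limma, adjusted p = 0.0593, 0.0637 and 0.0836) and when any 1 of the 4 Sca1+ arrays was left out (0.0647 to 0.106). Hoxb7 just missed at -0.81 (limma, adjusted p = 0.0518), and Hoxb6 and Hoxb3 were at -0.50 each (adjusted p = 0.243 and 0.180). No Hoxb gene lay above both vehicle arrays in MuSC and 5 of 8 lay below both, against 39.3% and 44.0% of all genes. The Hoxb median was -0.50. Of the 5 genes called lower, Hoxb5, Hoxb8, Hoxc13 and Hoxd13 were not called with normexp, at -0.47, -0.34, -0.52 and -0.47 (limma, adjusted p = 0.250, 0.461, 0.220 and 0.258), which left Hoxa11 at -1.16 (adjusted p = 0.00128).

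The 2 genes called higher are of middle numbers. Hoxa7, a gene of the thorax, stood at 1.80 and 1.64 in Sca1+ cells with vehicle, at 2.05 and 2.23 with TSA and at 2.82 in MuSC, 2.13-fold higher than with vehicle (1.09 ± 0.20, SE; limma, adjusted p = 0.0279). Hoxc4, a gene of the neck and upper thorax, stood at -0.27 and -0.43 with vehicle and at 0.55 in MuSC, 1.87-fold higher (0.91 ± 0.20, SE; limma, adjusted p = 0.0433). Their probes lie at chr6:52165626-52165685 (mm9, minus strand) and chr15:102867213-102867272 (mm9, plus strand). Neither call held when any 1 of the 4 Sca1+ arrays was left out (limma adjusted p of 0.0624 to 0.0923 for Hoxa7 and 0.0812 to 0.127 for Hoxc4). With the replicate number, which is also the slide, as a block the comparison had 1 higher and 7 lower: Hoxc4 missed (adjusted p = 0.0627), and Hoxd4 and Hoxd9 were called lower (limma, adjusted p = 0.0192 and 0.0396).

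The values of each cluster in MuSC, most of them not past the threshold, were as follows. Of all genes, 39.3% lay above both vehicle arrays in MuSC and 44.0% below both. All 5 tested Hoxd genes lay below both vehicle arrays, with a median of -1.18: Hoxd4 stood at -3.41 in MuSC (-1.68; limma, adjusted p = 0.0557), Hoxd11 at -5.51, not well above background (-1.18; adjusted p = 0.0607), and Hoxd9 at -1.54 (-0.78; adjusted p = 0.183). In Hoxa 7 of 10 genes lay above both vehicle arrays and the median was 0.58, with Hoxa5 at 0.99 and Hoxa9 at 0.71 (limma, adjusted p = 0.0965 and 0.102). In Hoxc the median was 0.48 and the value was lower at higher numbers, with a Spearman correlation of -0.933 (-0.767 with normexp) over 9 genes that share arrays and scaling. It ran from Hoxc4 at 0.91 and Hoxc5 at 0.67 (limma, adjusted p = 0.180) over Hoxc8 at 0.56 (adjusted p = 0.509) to Hoxc12 at -0.94 (adjusted p = 0.439) and Hoxc13. Of these, Hoxc8 was well above background on only 1 vehicle array and 1 TSA array and was kept through the MuSC array alone. With normexp Hoxc8 was at -0.04. Hoxc5 stood at -3.06 and -2.55 with vehicle and -2.14 in MuSC, Hoxc8 at -3.52 in MuSC, level with vehicle replicate 2, and Hoxa9 at -1.40 and -1.65 and -0.82. The second Hoxd11 probe, also not well above background in MuSC, lay between the vehicle arrays there, with a MuSC value of 0.29. With the mean of both probes Hoxd11 was at -0.45.

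**Figure D3:**
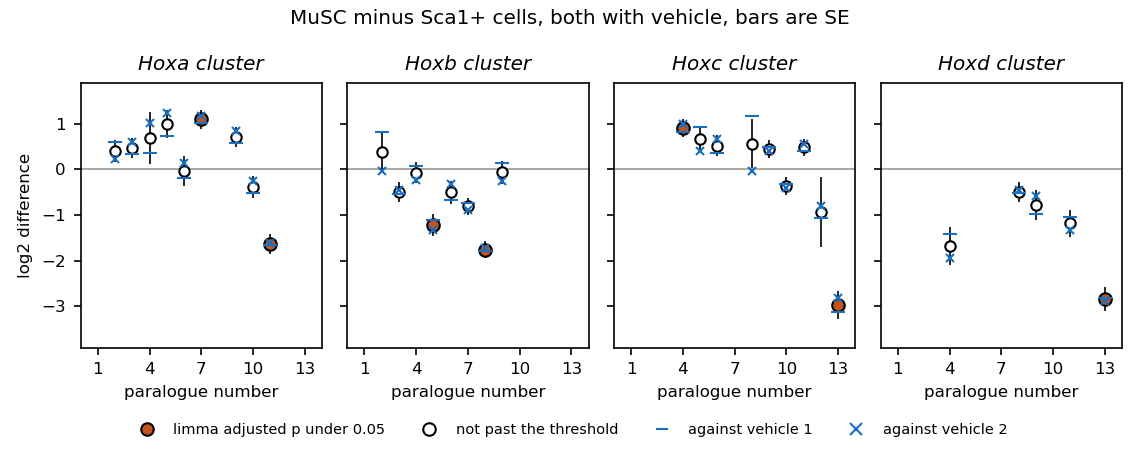
Difference between MuSC and Sca1+ cells, both with vehicle (log2), against paralogue number, in 1 panel per cluster; circles are the limma estimate with its standard error, filled at an adjusted p under 0.05, and blue marks set the MuSC array against each vehicle array. All 5 Hoxd values lie below 0, and Hoxc runs from 0.91 at Hoxc4 to -2.97 at Hoxc13.

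The TSA and MuSC comparisons share the 2 vehicle arrays, so their values stand side by side only. At numbers 9 to 13 outside Hoxb the medians were -0.37 with TSA and -0.78 in MuSC, and at numbers 1 to 8 outside Hoxb 0.27 and 0.56. In Hoxb they were 1.02 and -0.50. Hoxb8 was called in both comparisons, higher with TSA and lower in MuSC.

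The upstream sequences of 3 of the called genes are shown, Hoxb8 (called in both), Hoxa7 (higher in MuSC) and Hoxd13 (lower in MuSC). They are the 250 bases before the transcription start in RefSeq (GRCm38.p6), at chr11:96281655-96281904 (plus strand) for Hoxb8, chr6:52218574-52218823 (minus strand) for Hoxa7 and chr2:74667975-74668224 (plus strand) for Hoxd13, each 5′ to 3′ on the gene's strand. Capitals mark, on either strand, TATAAA (the TATA box), TTTATG (a site of Cdx proteins, which activate Hox genes in the embryo), TGATNNAT (a joint site of Hox and Pbx) and TAATTA (a homeodomain core).
Hoxb8: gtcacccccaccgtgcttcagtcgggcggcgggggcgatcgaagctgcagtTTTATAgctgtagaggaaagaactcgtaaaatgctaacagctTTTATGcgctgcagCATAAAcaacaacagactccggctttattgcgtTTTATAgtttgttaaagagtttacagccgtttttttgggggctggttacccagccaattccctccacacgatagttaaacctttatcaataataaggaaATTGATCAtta
Hoxa7: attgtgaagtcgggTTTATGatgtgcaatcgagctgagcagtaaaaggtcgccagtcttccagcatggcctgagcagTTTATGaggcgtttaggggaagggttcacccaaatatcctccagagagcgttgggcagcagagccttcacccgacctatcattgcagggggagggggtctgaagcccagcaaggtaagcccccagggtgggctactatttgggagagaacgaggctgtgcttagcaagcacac
Hoxd13: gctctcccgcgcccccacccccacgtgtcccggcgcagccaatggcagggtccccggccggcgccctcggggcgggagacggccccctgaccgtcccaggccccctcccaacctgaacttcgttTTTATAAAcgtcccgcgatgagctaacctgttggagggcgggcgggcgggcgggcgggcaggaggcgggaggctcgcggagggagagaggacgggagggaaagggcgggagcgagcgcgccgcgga
Hoxb8 held 2 matches to TATAAA, 2 to TTTATG and 1 to TGATNNAT, and Hoxa7 held 2 to TTTATG. The called genes Hoxa11 and Hoxc4, whose sequences are not shown, held 0 matches to each of these motifs. The called genes Hoxb9, Hoxb5 and Hoxc13 had no entry. Hoxd13 held TATAAA on both strands in 1 overlapping run, in a sequence of 74.4% G and C against 44.4% for Hoxb8. Of 32851 RefSeq promoters of the same length, 12.4% held TATAAA, 10.8% TTTATG, 7.68% TGATNNAT and 4.84% TAATTA. RefSeq entries were matched for 22 of the 39 genes, and of their 24 entries 4 held TATAAA, 5 TTTATG, 4 TGATNNAT and 2 TAATTA.

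Noncoding transcripts of the clusters were represented on the array by 5 transcripts, from a list of 17 names. HOTAIR, which is transcribed against the Hoxc genes between Hoxc11 and Hoxc12, had 5 probes that did not behave alike. Its brightest probe stood at 0.05 and -0.43 with vehicle, at -0.43 and -1.27 with TSA and at -0.16 in MuSC, with no difference past the threshold. A second stood at -2.17 and -2.17, at -2.43 and -2.28, and at -0.80. Over all probes, 3 of the 5 were higher in MuSC (limma, adjusted p of 0.0137 to 0.0185, where 9.38% of all probes were called higher), and the adjusted p of the other two was 0.0507 and, for the brightest, 0.967. The noncoding transcript 2700086A05Rik, listed as Hoxaas3 and lying among the Hoxa genes at chr6:52160572-52160631 (mm9, minus strand), stood at -3.04 and -3.27 with vehicle, at -2.08 and -2.10 with TSA and at -1.88 in MuSC. It was 2.42-fold higher in MuSC (1.27 ± 0.20, SE; limma, adjusted p = 0.0185) and at 1.07 with TSA (adjusted p = 0.0625). Hoxa11os, antisense to Hoxa11, was at -1.04 in MuSC (limma, adjusted p = 0.0753) and Hoxd3os1 at -1.10 (adjusted p = 0.0997), neither past the threshold, though Hoxa11os passed with the slide as a block (-1.23, adjusted p = 0.0255). Hoxb5os, antisense to Hoxb5, was at 0.04 with TSA and 0.23 in MuSC.

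Of 9 cofactors 3, the Meis genes, were called lower in MuSC (limma, adjusted p under 0.05), against 11.7% of all genes. Meis3 stood at 5.60 and 5.89 in Sca1+ cells with vehicle, at 5.02 and 4.92 with TSA and at 1.96 in MuSC, 13.8-fold lower than with vehicle (-3.78 ± 0.22, SE; limma, adjusted p = 0.002). Meis2, at 0.91 and 0.58 with vehicle and -0.92 in MuSC, was 3.18-fold lower (adjusted p = 0.0138), and Meis1, at 1.35 and 1.23 and 0.39, 1.86-fold lower (adjusted p = 0.0394). The call of Meis1 was lost with the slide as a block (limma, adjusted p = 0.0594), which left 2 of 9. It was also lost with normexp, median centring and no filter on dim probes (limma, adjusted p = 0.0747, 0.114 and 0.105). The Pbx and Pknox genes were not called. Pbx4, well above background on the MuSC array alone and kept through it, was at 0.61 (limma, adjusted p = 0.194). With TSA 0 of the 9 cofactors were called and 4 were lower at an unadjusted p under 0.05, against 12.7% of all genes, with a median of -0.44 against -0.13. Both TSA arrays lay below both vehicle arrays in 5 of the 9, Meis1, Meis2 and Meis3 among them, against 36.4% of all genes. These Meis genes were at -0.60, -0.44 and -0.78 with TSA (limma, adjusted p = 0.141, 0.256 and 0.120).

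Of 28 upstream regulators 26 could be tested, and in MuSC 4 were higher and 2 lower, against 10.5% and 11.7% of all genes. Ezh2 and Suz12, subunits of the Polycomb complex that methylates histone H3, were 3.51-fold and 2.14-fold higher, Bmi1, of the other Polycomb complex, 2.00-fold and the retinoic acid receptor Rarb 2.62-fold (limma, adjusted p = 0.0129, 0.0252, 0.0367 and 0.0297). With the slide as a block the call of Bmi1 was lost (limma, adjusted p = 0.0555). Aldh1a2, which makes retinoic acid, stood at 4.26 and 4.13 with vehicle and at -1.63 in MuSC, 56.8-fold lower (-5.83 ± 0.18, SE; limma, adjusted p = 0.00141), and Cyp26b1, which degrades it, at 3.35 and 3.06 and at 0.94, 4.82-fold lower (adjusted p = 0.00562). Gdf11, a signal that sets the trunk to tail border, and Cyp26a1, which degrades retinoic acid, were at 1.38 and -0.92 (limma, adjusted p = 0.0663 and 0.0868), and Gdf11 passed with the slide as a block (1.13, adjusted p = 0.0375). Cdx2 and Cdx4 were well above background on no array. With TSA 0 of the 26 regulators were called, 3 were higher and 3 lower at an unadjusted p under 0.05, against 10.5% and 12.7% of all genes, and the values ran from -0.79 to 0.78.

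Other genes of body position, which act in the limbs, girdles and head, spanned values from -5.93 to 6.57 in MuSC. Of 34 tested 7 were higher and 16 lower, against 10.5% and 11.7% of all genes, with a median of -0.85. Tbx5, the forelimb factor, stood at -2.06 and -2.01 with vehicle, at -2.60 and -2.76 with TSA and at -6.08 in MuSC, not well above background and at least 6.35-fold lower (-4.04 ± 0.19, SE; limma, adjusted p = 0.0015). Pitx1, the hindlimb factor, stood at 1.19 and 0.90, at 0.60 and 0.65, and at -2.59, 12.4-fold lower (-3.64 ± 0.21, SE; adjusted p = 0.0021). Tbx4, the other hindlimb factor, stood at 1.05 and 0.89, at 0.54 and 0.69, and at 0.82, and did not pass in either comparison (limma, adjusted p = 0.646 in MuSC and 0.273 with TSA). Tbx5, Pitx1 and Tbx4 were well above background on all 4 Sca1+ arrays.

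The largest values on the low side belonged to Lmx1a, at -5.93 and at least 20.5-fold lower in MuSC, and to Meox1, a somite factor, at -4.30. Among the others called lower were Isl1, Emx2, Prrx2, Hand2, Pax9, Shox2, Tbx18, Tbx15, Gli3, Meox2 and Msx1, from -2.94 to -1.16. Among those higher in MuSC were Tbx1, a factor of head and branchial muscle, at least 43.1-fold, Lbx1, a factor of migrating limb muscle precursors, 13.7-fold, Tbx2 18.6-fold, Tbx3 3.13-fold, and Irx3, at 1.80. Irx5, not well above background in Sca1+ cells, was at 1.89 and Msx2 at -0.93, and neither passed (limma, adjusted p = 0.0630 and 0.294), though Irx5 did with the slide as a block (1.51, adjusted p = 0.0150).

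Of these genes 3 were also higher with TSA in Sca1+ cells, Tbx2 and Tbx1 among them, and 0 lower, against 2.71% and 0.268% of all genes. Tbx2 stood at -0.38 and -0.65 with vehicle, at 1.60 and 1.67 with TSA and at 3.70 in MuSC, 4.43-fold higher with TSA (2.15 ± 0.17, SE; limma, adjusted p = 0.0136). Tbx1 stood at -5.19 and -6.13, neither well above background, at -2.50 and -2.29 with TSA and at 0.91 in MuSC, at least 4.35-fold higher with TSA (3.26 ± 0.36, SE; adjusted p = 0.0287). For both the TSA arrays lay between the vehicle arrays and MuSC, as they did for Pax7, and the part of satellite cell RNA in these values was not tested. Tbx3 was at 1.03 (limma, adjusted p = 0.0699). Both calls were lost without vehicle replicate 2 and without either TSA array, and without vehicle replicate 1 that of Tbx1 remained (adjusted p = 0.0357). With normexp Tbx2 was still called and Tbx1 was not, at 0.39. Another 10 of the 34 were lower at an unadjusted p under 0.05, against 12.7% of all genes, and with normexp 8 were called lower, against 22.5%.

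**Figure D4:**
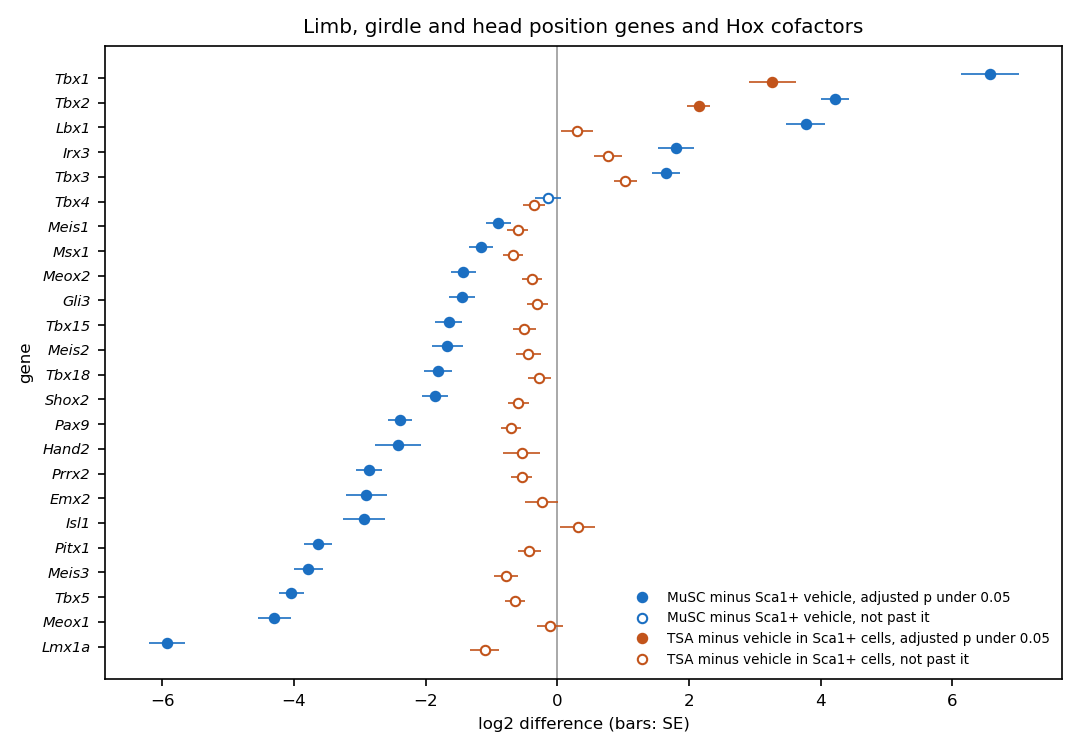
Log2 difference with its standard error for the limb, girdle and head position genes and Hox cofactors called in either comparison and reported here, and for Tbx4, in MuSC against Sca1+ cells (blue) and in Sca1+ cells with TSA against vehicle (orange); filled circles have a limma adjusted p under 0.05. Tbx1 and Tbx2 are filled in both, and Meis3, Tbx5, Meox1 and Lmx1a lie at the low end in MuSC.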

How the data were processed

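RNA of 5 samples was hybridised to 1-colour arrays on 2 slides, replicate 1 of each group on slide 1. Per the file headers, spot intensity was extracted and background-subtracted with Agilent Feature Extraction 10.7.3.1; the authors' deposited table holds log2 values with medians of 4.67 to 4.68, whose normalization is not stated, and served as an alternative. Here, log2 of the processed signal was set against the 75th percentile of each array over 59305 non-control spots. Control and outlier spots were left out and spots of a probe averaged. The brightest probe stands for a gene, and a gene was kept where some group had it well above background throughout (26090). Two-sided tests came from limma 3.58.1 (R 4.3.3), by lmFit followed by eBayes over all 5 arrays in 3 groups with 2 residual degrees of freedom, adjusted over all genes by Benjamini-Hochberg (threshold 0.05), and were tested on simulated data. The number of arrays limits the precision. Replicate arrays correlated at 0.987 with vehicle and 0.989 with TSA.

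The 39 members, 4 lists of related genes and 10 marker lists were chosen with earlier results of these data known. Genes named with values are those called in either comparison and, per cluster, up to 3 more with the largest difference in each comparison (of other lists, 2 more); Hoxb2, Hoxa4, Hoxa6 and Tbx4 were named after their values were seen. A few genes and 1 probe sequence are not reported or plotted here, though genes count in all totals. Alternatives were the slide as a block, normexp (offset 50), quantile and median scaling, the deposited values, 2 other filters, 2 other probe choices, leaving out each array, and single slides. The mean signal planned for normexp is not used here, since the files of slide 2 do not give it; the median signal was taken on all arrays. Same-numbered arrays deviated from their group means with a correlation of 0.348, and 2 pairs do not settle a pairing.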

Additional observations from a re-analysis of the deposited data

How the results depend on the processing

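The cause of each move below was not tested. Of the TSA comparison, the 2 Hox genes called higher, both in Hoxb, became 1 with normexp, 4 with median centring and 0 with no filter on dim probes, and 0 without any 1 replicate. Hoxb8 reversed with normexp, to -0.050 (adjusted p = 0.885). Normexp moved the median of all genes from -0.13 to -0.25. It called 3 Hox, 2 cofactor, 4 regulator and 8 position genes lower, where 0 had been, and 1 regulator higher. Over all genes it called 22.5% lower and 4.80% higher. The 3 position genes called higher became 0 with no filter, 1 with the filter on all 5 arrays, and 0 to 1 without 1 replicate. The median Hox difference of 0.10 was -0.27 with normexp, 0.13 with quantile scaling, 0.19 with median centring, 0.15 with the deposited values, 0.025 with no filter, 0.14 with the filter on all 5 arrays, 0.047 on slide 1, 0.0038 on slide 2 and 0.067 to 0.17 without 1 replicate.

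Of the MuSC comparison, the 2 Hox genes called higher became 1 with the replicate block, 1 with median centring, 1 with every probe by itself, 0 with no filter and 0 without any 1 replicate. The 5 called lower became 1 with normexp and 3 to 4 without 1 replicate. The 2 called lower in Hoxb became 0 with normexp, 1 with no filter and 1 without any 1 replicate. The 4 regulators called higher became 1 with no filter and 1 to 3 without 1 replicate. The median of -0.07 was -0.32 with no filter and -0.24 to -0.064 without 1 replicate. With the replicate block the TSA counts for Hox genes were the same, 2 and 0, and the MuSC counts 1 and 7. The fit of the 4 Sca1+ arrays alone gave the same values, since the lone MuSC array adds no residual degrees of freedom. Detection counts by the looser flag were 34, 35 and 32 of 39. Under normexp the sign of Hoxa2, Hoxa4, Hoxa5, Hoxb8 and Hoxc5 with TSA and of Hoxc8 in MuSC flipped. Hoxb8, Hoxc13, Hoxd11 and Hoxd13 were not well above background in MuSC, so their levels there are bounds.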
